A study of Homo sapiens with 4 samples.

Results

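Liver glucose output, fructose entry and glycogen turnover were followed through 9 genes in human hepatocellular carcinoma cells with SCD, the stearoyl-CoA desaturase gene, knocked down and in their controls. The genes were chosen by name for their function, with earlier results of these data known: PC, PCK1, PCK2, FBP1, G6PC, SLC2A2, KHK, GYS2 and PYGL. All 9 symbols were found among the 25343 symbols in each gene table. The 4 libraries came from 2 established hepatocellular carcinoma lines, Huh7 and PLC/PRF/5, with 1 library for each combination of line and arm. The knockdown cells (Huh7_shSCD1 and PLC_shSCD1) carried the lentiviral hairpin shSCD1#13, and the controls (Huh7_NTC and PLC_NTC) carried a non-target lentiviral vector. Cells of both arms were stably transduced, selected in puromycin and grown in DMEM-HG with FBS and PS. A single hairpin stands for the knockdown in both lines, and both lines are tumour lines rather than hepatocytes.

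Gluconeogenesis builds glucose from lactate, alanine and other precursors, and in the liver it supplies the blood during fasting. Pyruvate carboxylase and phosphoenolpyruvate carboxykinase carry pyruvate past the irreversible last step of glycolysis. Fructose-1,6-bisphosphatase and glucose-6-phosphatase then bypass the irreversible steps at its top, and the free glucose leaves by a facilitative transporter. Fructose enters the same pathway through ketohexokinase, and glycogen is built by glycogen synthase and broken down by glycogen phosphorylase. Several of these steps have a form typical of liver and another form found in most tissues.

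Values are transcript abundances (TPM), a level per transcript length that can be compared between genes. SCD itself was 12.8-fold lower in the Huh7 knockdown library than in its control and 6.25-fold lower in that of PLC/PRF/5, as the labels state. TPM carries no sequencing depth, so counting error could not be computed for any value. Hepatocyte markers separated the lines: the 11 markers summed to 33545 TPM (control) and 30264 TPM (knockdown) for Huh7, and to 5595 and 3695 TPM for PLC/PRF/5. AFP (control 15421 TPM, knockdown 10302 TPM) and ALB (6498.5 and 10479 TPM) made up most of the Huh7 sums. In the limma line comparison below, 10 of the 11 markers were lower in PLC/PRF/5. The exception was APOB, which was higher there, with control values of 1165 (Huh7) and 1780 TPM (PLC/PRF/5). TTR, a plasma carrier protein made by hepatocytes, was under 1 TPM in both PLC/PRF/5 libraries. Of 13 markers of other cell types, LYZ reached 1008 to 2600 TPM and KRT19, a biliary keratin, 4.11 to 564 TPM. Of these markers, 3 were also over 1 TPM in both Huh7 libraries (CD14 at 2.53 and 2.81 TPM in control and knockdown, PDGFRB at 10.2 and 4.96 TPM, and COL1A1 at 3.06 and 1.9 TPM), and the endothelial marker PECAM1 was at 1.44 to 3.35 TPM in all libraries. COL3A1 was at 0.69 to 2.36 TPM. PTPRC, VWF, CDH5, DCN and KRT7 stayed under 1 TPM in every library, and ACTA2 was listed at 0 throughout. In bulk RNA, fewer cells that express a gene and less RNA per cell cannot be told apart.

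The lines differed in which of these genes they expressed most. PC and FBP1 were higher in Huh7, while PCK1, PCK2, G6PC and KHK were higher in PLC/PRF/5, and PYGL, SLC2A2 and GYS2 differed little or were low in both. No library held both FBP1 and G6PC at 1 TPM or more: only FBP1 of the pair reached that level in the Huh7 libraries, and only G6PC in the PLC/PRF/5 libraries. The number of the 9 genes that reached 1 TPM was 6 in the Huh7 control and 7 in each of the other libraries.

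**Figure D1:**
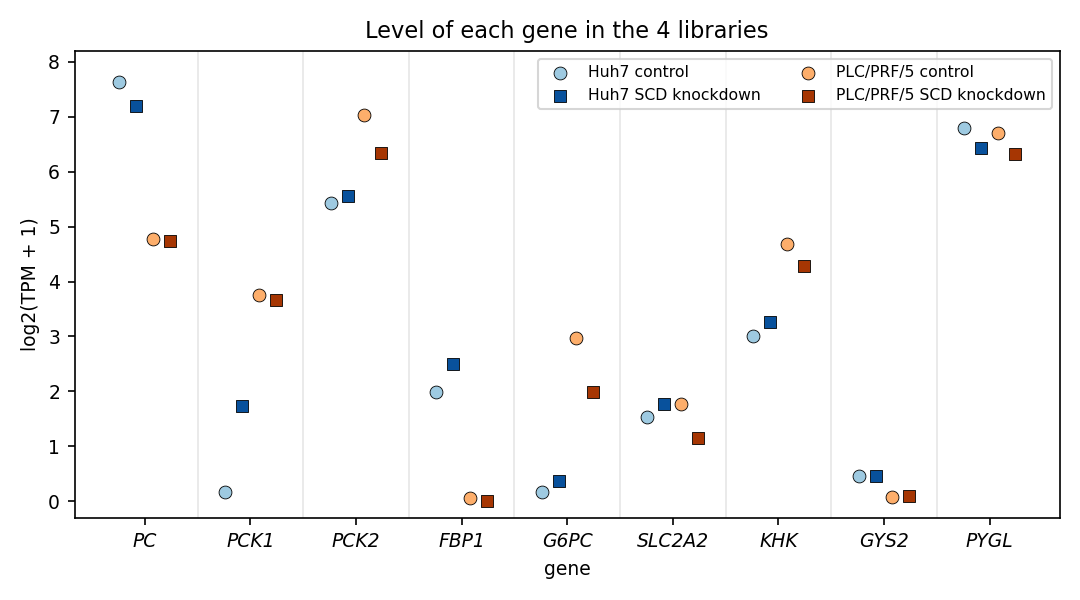
Level of each gene in each library, as log2(TPM + 1) on the vertical axis, with 1 point per library and no error because each group has 1 library. PC and FBP1 sit higher in Huh7 (blue), PCK1, PCK2, G6PC and KHK higher in PLC/PRF/5 (orange), and PYGL is alike in the lines.

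PC encodes pyruvate carboxylase, the mitochondrial enzyme that makes oxaloacetate from pyruvate. Huh7 control cells held 197 TPM and knockdown cells 146 TPM, whereas the PLC/PRF/5 libraries held 26.5 TPM (control) and 25.8 TPM (knockdown). Both Huh7 libraries lay above both PLC/PRF/5 libraries, by 7.45-fold between the controls. PC ranked first of the 9 genes in both Huh7 libraries, above 93.5% of all genes at 1 TPM or more in the control. In PLC/PRF/5 it ranked the third, at the level of a middling gene (above 52.3% in the control). LRFN4, which lies on the opposite strand and covers 10.5% of the exon bases of PC, was at 0.2 TPM or less in every library.

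PCK1 encodes the cytosolic phosphoenolpyruvate carboxykinase, a textbook target of glucagon and insulin signalling, and PCK2 the mitochondrial form. PCK1 was listed at 0.13 TPM for control and 2.33 TPM for knockdown cells of Huh7, beside 12.6 TPM (control) and 11.6 TPM (knockdown) for PLC/PRF/5. The Huh7 control stood lowest, the Huh7 knockdown between, and the PLC/PRF/5 libraries highest and close together. PCK2 was at 41.9 TPM (control) and 46.0 TPM (knockdown) in Huh7, against 130 and 79.9 TPM for the PLC/PRF/5 pair. PCK2 was thus the more abundant form in every library, and in PLC/PRF/5 it was the most abundant of the 9 genes.

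FBP1 encodes the liver fructose-1,6-bisphosphatase, and its muscle counterpart FBP2 was listed at 0 in all libraries. FBP1 stood at 2.98 TPM in control and 4.67 TPM in knockdown cells of Huh7. It was at 0.04 TPM in the PLC/PRF/5 control and listed at 0 in the PLC/PRF/5 knockdown. G6PC encodes the catalytic subunit of liver glucose-6-phosphatase, the last enzyme of glucose output. Its levels were the reverse: 0.12 TPM (control) and 0.3 TPM (knockdown) in Huh7, against 6.85 and 2.99 TPM for the PLC/PRF/5 pair. For both genes, as for PC, the lines did not overlap. The share of all genes without overlap was not counted, and 59.8% of all genes of the fit passed the line test below. In GENCODE, the antisense gene PCAT7 covers 16.3% of the exon bases of FBP1. The annotation behind the deposited values is not given in the sources used here. No level is reported here for PCAT7, and its part in the values of FBP1 was not tested.

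Promoter sequence is shown for the genes whose level differed most between the lines and for which RefSeq gave a window, so that the promoters of genes high in one line can be read beside those of genes high in the other. Each holds the 250 bases before an annotated start in RefSeq's GRCh38.p14, 5′ to 3′ on the gene's own strand, with motif matches in capitals. These coordinates are on a later build than the hg19 of the deposited values. G6PC lies at chr17:42900549-42900798 (plus strand), FBP1 at chr9:94639519-94639768 (minus strand), PC at chr11:66958384-66958633 (minus strand, the first of 3 windows) and PCK2 at chr14:24094061-24094310 (plus strand).
G6PC: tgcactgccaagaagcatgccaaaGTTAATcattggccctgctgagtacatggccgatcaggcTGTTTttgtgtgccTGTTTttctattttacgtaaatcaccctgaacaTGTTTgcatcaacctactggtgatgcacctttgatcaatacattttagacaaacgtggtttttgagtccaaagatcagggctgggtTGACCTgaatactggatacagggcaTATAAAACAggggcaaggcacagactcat
FBP1: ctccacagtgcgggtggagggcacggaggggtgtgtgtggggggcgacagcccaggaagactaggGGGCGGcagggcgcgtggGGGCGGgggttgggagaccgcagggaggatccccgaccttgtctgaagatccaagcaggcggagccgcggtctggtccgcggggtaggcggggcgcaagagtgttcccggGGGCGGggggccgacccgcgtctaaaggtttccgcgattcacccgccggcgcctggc
PC: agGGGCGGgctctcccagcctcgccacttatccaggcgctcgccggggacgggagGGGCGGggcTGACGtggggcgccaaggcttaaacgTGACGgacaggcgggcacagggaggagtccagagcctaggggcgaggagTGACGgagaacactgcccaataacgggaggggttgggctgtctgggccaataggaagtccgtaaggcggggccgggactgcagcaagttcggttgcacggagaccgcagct
PCK2: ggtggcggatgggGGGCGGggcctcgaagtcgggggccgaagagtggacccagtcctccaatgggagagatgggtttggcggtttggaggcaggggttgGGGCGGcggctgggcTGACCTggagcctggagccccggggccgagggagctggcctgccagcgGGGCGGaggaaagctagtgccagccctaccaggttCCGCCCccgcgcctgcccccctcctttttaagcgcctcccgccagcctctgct

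The motifs searched, on both strands, were the TATA box TATAAA, the GC box GGGCGG, the forkhead core TGTTT, the nuclear receptor core AGGTCA, the cyclic AMP response core TGACG and the HNF1 core GTTAAT. Positions are counted back from the base before the start, which is -1. The G6PC window held a TATA box at -29, an HNF1 core at -226, a receptor core at -54 and 4 forkhead cores, the last of which overlaps the TATA box. It held no GC box, 3 CG dinucleotides and 44% G and C. The FBP1 window was of the opposite kind, with 3 GC boxes, 26 CG dinucleotides, 72.8% G and C, and none of the other motifs. In the PC window there were 2 GC boxes and 3 cyclic AMP response cores at 67.6% G and C, and in the PCK2 window 4 GC boxes and 1 receptor core at 71.6%. Among 35116 windows of this length, 10.7% held the TATA box, 42.6% the GC box, 40.4% the forkhead core, 12.1% the receptor core, 21.2% the cyclic AMP core and 6.23% the HNF1 core. The median window had 58% G and C. The other windows of PC held 56.4% and 50.4% G and C, and gene-level TPM does not tell its starts apart. The PYGL window held 3 GC boxes at 76%, and that of SLC2A2 1 forkhead core at 48.8%. The genes higher in PLC/PRF/5 include both a window with a TATA box and no GC box (G6PC) and one with GC boxes and no TATA box (PCK2). These are matches of letters, not binding sites.

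SLC2A2 encodes GLUT2, the facilitative glucose transporter of hepatocytes. It was low everywhere, at 1.88 TPM in control and 2.42 TPM in knockdown cells of Huh7, beside 2.42 and 1.22 TPM for those of PLC/PRF/5. The lines overlapped. KHK encodes ketohexokinase, which phosphorylates fructose. It was at 7.03 TPM (control) and 8.59 TPM (knockdown) in the Huh7 pair, and 24.5 and 18.4 TPM in the PLC/PRF/5 pair. CGREF1 lies opposite KHK and covers 23.8% of its exon bases. The strand setting of the counting is not given in the sources used here, so reads from there could be assigned to either gene. CGREF1 was at 4.54 TPM (control) and 10.9 TPM (knockdown) in Huh7, against 8.53 and 10.1 TPM for the PLC/PRF/5 pair.

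GYS2 encodes the liver glycogen synthase and PYGL the liver glycogen phosphorylase. GYS2 was at 0.38 TPM in both Huh7 libraries and at 0.06 and 0.07 TPM in the PLC/PRF/5 control and knockdown. It stayed under 1 TPM throughout and did not enter the fit. Its values are also uncertain. In GENCODE, 87.5% of the 31-base words of its longest transcript occur in an overlapping gene of the same strand, and SPX overlaps it on the opposite strand. SPX was at 5.85 TPM (control) and 4.34 TPM (knockdown) in Huh7, against 1.25 and 1.87 TPM for the PLC/PRF/5 pair. The part of these genes in the values of GYS2 was not tested. PYGL was at 110 TPM in control and 85.5 TPM in knockdown cells of Huh7, beside 103 and 79.4 TPM for those of PLC/PRF/5. It ranked the second of the 9 genes in every library, and each knockdown library lay below both controls.

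The difference between the lines was tested with limma on log2(TPM + 1) over all 4 libraries, with the arm as a block and Benjamini-Hochberg adjustment over 13813 genes. Each gene has 1 residual degree of freedom, to which limma adds 3.71 prior degrees of freedom drawn from all genes. The p-values therefore set the line difference against a spread taken largely from all genes. That spread measures how alike the line difference was in both arms, not the spread among cultures. Of the 8 genes that entered the fit, 4 were higher in PLC/PRF/5 and 2 were lower. Over all genes of the fit, 59.8% passed, with 31.5% higher and 28.3% lower in PLC/PRF/5, so a call is common for any gene in this comparison. PCK1 was higher in PLC/PRF/5 by 2.76 on the log2 scale with a standard error of 0.42 (limma adjusted p = 0.00536). G6PC was higher in PLC/PRF/5 by 2.21 (standard error 0.33, limma adjusted p = 0.00511), KHK by 1.34 (0.21, limma adjusted p = 0.00562) and PCK2 by 1.20 (0.21, limma adjusted p = 0.00819). PC differed by -2.65 with a standard error of 0.13 (limma adjusted p = 0.000377) and FBP1 by -2.22 with 0.23 (limma adjusted p = 0.00188). PYGL, at -0.10 (standard error 0.09, limma adjusted p = 0.363), and SLC2A2, at -0.19 (0.28, limma adjusted p = 0.584), did not pass. Sizes for the low genes depend on the pseudocount: with 0.1 and 5 in its place, the difference was -5.02 and -0.81 for FBP1, 3.97 and 0.90 for G6PC and 4.03 and 1.48 for PCK1, past the threshold each time. That of PC was -2.69 and -2.49, so the order of sizes among these genes changes with the pseudocount.

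The line differences of the 4 genes higher in PLC/PRF/5 were smaller between the knockdown libraries than between the controls. For PCK1 the log2 difference was 3.59 between the controls and 1.92 between the knockdown libraries, and for G6PC it was 2.81 and 1.62. For PCK2 it was 1.61 and 0.78, and for KHK 1.67 and 1.01. Of the genes higher in Huh7, PC also had a smaller difference between the knockdown libraries (-2.85 and -2.46). FBP1 had a larger one (-1.94 and -2.50). The share of all genes with a smaller difference was not counted. The change from controls to knockdown libraries is the PLC/PRF/5 log2 fold change minus that of Huh7. It restates the fold changes given below and is not a separate result. By size alone, 4 of 8 genes stood at least 2-fold higher in the PLC/PRF/5 control (14.9% of all genes considered) and 2 at least 2-fold lower (15.8%). A design with 1 library a group has no test of whether these differences changed with the knockdown.

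**Figure D2:**
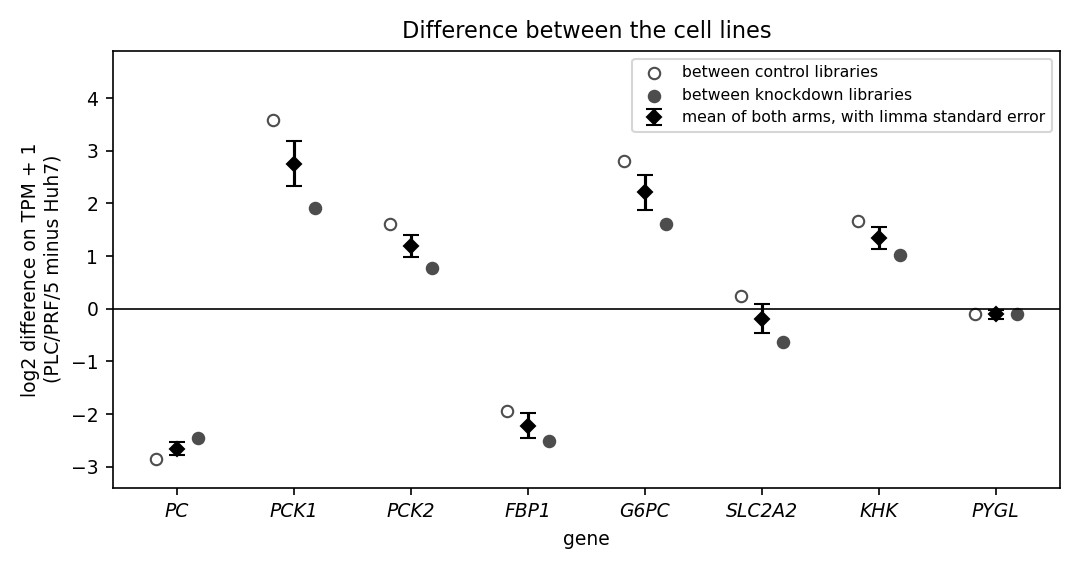
Difference between the lines for the 8 genes in the fit, as PLC/PRF/5 minus Huh7 on the log2(TPM + 1) scale, between control libraries (open circles), between knockdown libraries (filled circles) and as the mean of both (diamonds, with the limma standard error). PC and FBP1 lie near -2.65 and -2.22, and PCK1, G6PC, KHK and PCK2 between 1.20 and 2.76.

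With SCD knocked down, the genes considered in PLC/PRF/5 all lay below the control, while in Huh7 some lay above it and others below. In Huh7, 5 of the 7 genes considered (those at 1 TPM or more in a library of the pair) were higher in the knockdown library (60.2% of all genes), and in PLC/PRF/5 all 7 considered were lower (36.5% of all genes). Values here are log2 fold changes on TPM + 1, a scale that understates changes of low genes, and each is a difference between 2 single libraries with no replicate check. The 7 genes considered had a median of 0.25 for Huh7 and -0.40 for PLC/PRF/5, beside 0.08 and 0.10 over all genes considered. Rescaling the libraries by median ratios shifted the median of all genes by -0.09 in Huh7 and -0.13 in PLC/PRF/5 and made those shares of all genes 48.2% (higher, Huh7) and 54.6% (lower, PLC/PRF/5), while the 7 genes and their directions were the same.

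In Huh7 the largest value was that of PCK1, 1.56. It was the 1 gene of 7 at least 2-fold higher, beside 3.1% of all genes, and none was at least 2-fold lower (1.54% of all genes). The Huh7 control listed PCK1 at only 0.13 TPM, and with a pseudocount of 5 in place of 1 the value was 0.51. FBP1 had a log2 fold change of 0.51, KHK of 0.26, SLC2A2 of 0.25 and PCK2 of 0.13. PC and PYGL were lower in the knockdown, at -0.43 and -0.36.

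In PLC/PRF/5 the lowest value at a pseudocount of 1 was that of G6PC, -0.98, which falls just short of 2-fold on this scale, while the deposited TPM values differ 2.29-fold. No gene reached 2-fold in either direction, beside 1.72% of all genes higher and 1.11% lower. With a pseudocount of 0.1 the value of G6PC was -1.17 and after median-ratio scaling -1.09, both past 2-fold, but with a pseudocount of 5 it was -0.57, and PCK2 was then the lowest at -0.67. PCK2 followed at -0.69, SLC2A2 at -0.62, KHK at -0.40 and PYGL at -0.37, and PCK1 was at -0.10 and PC at -0.03. Hepatocyte markers were lower in the same library: 9 of 10 considered (36.5% of all genes), 4 of them at least 2-fold, with a median of -0.83, against 7 of 11 lower and a median of -0.26 in Huh7. After median-ratio scaling, 10 of 10 were lower in PLC/PRF/5 (54.6% of all genes), with a median of -0.97. In Huh7, 8 of 11 were then lower (51.8% of all genes), with a median of -0.36. The part of these markers in the lower values of the 7 genes was not tested.

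**Figure D3:**
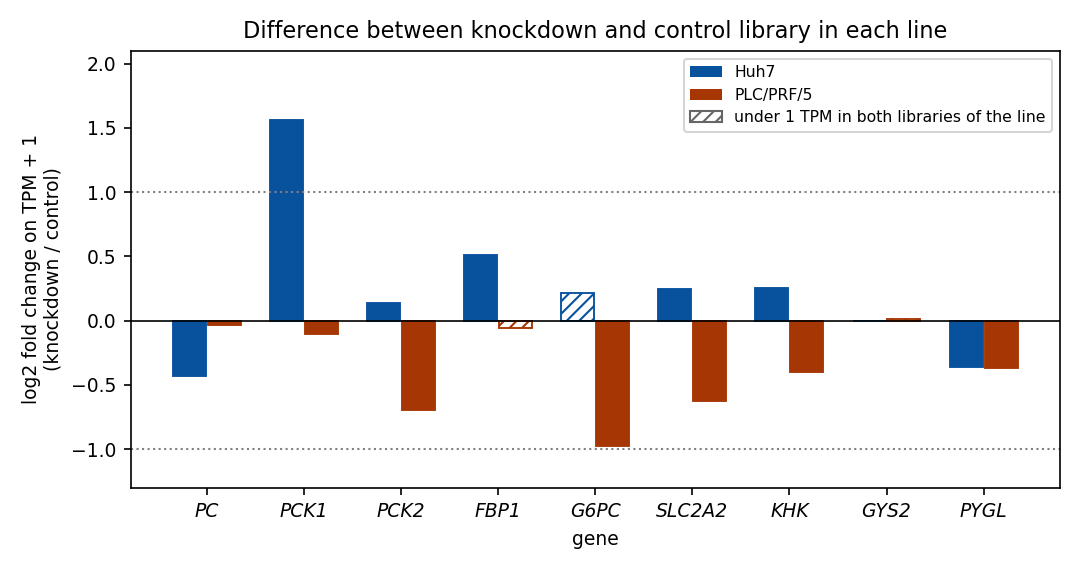
Log2 fold change on TPM + 1 of the knockdown over the control library in Huh7 (blue) and PLC/PRF/5 (brown), 1 bar per gene and line, hatched where both libraries were under 1 TPM; dotted lines mark 2-fold. PCK1 in Huh7 (1.56) passes the upper line, G6PC in PLC/PRF/5 (-0.98) ends just inside the lower one, and PYGL is alike in both (-0.36 and -0.37).

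Across the lines, none of the 8 genes in the fit passed the knockdown test in limma, where 0.00724% of all genes passed. SCD itself did not pass, at a mean of -3.15 on the log2 scale (limma adjusted p = 0.128). Failing this test therefore does not show that a gene was unchanged. The test asks for a difference common to both lines, with the line as a block and 1 residual degree of freedom. PYGL came nearest, at a mean of -0.37 on the log2 scale (standard error 0.09), with both lines lower, an unadjusted p = 0.0104 and a limma adjusted p = 0.191. PYGL was the 1 gene of 8 with an unadjusted p under 0.05, a share no larger than the 18% of all genes. PCK1 had a mean of 0.73 with a standard error of 0.42 (limma adjusted p = 0.407), from 1.56 in Huh7 and -0.10 in PLC/PRF/5, and that mean was 0.22 with a pseudocount of 5. The remaining limma adjusted p-values ran from 0.398 for PC to 0.878 for KHK.

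Among the 6 genes considered in both lines, 4 were higher in the Huh7 knockdown and lower in that of PLC/PRF/5: PCK1, PCK2, KHK and SLC2A2. Of all genes considered in both lines, 14.1% showed that pattern. PC and PYGL were lower in both (22.4% of all genes). The difference between the lines' responses was not tested, for want of replicates.

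Pairs of liver and widespread forms were set side by side within each library, where scaling has no effect. PCK1 and PCK2 were paired as cytosolic and mitochondrial forms. For phosphorylase the knockdown libraries held less of the liver form in both lines. PYGL made up 55.1% of the summed TPM of PYGL and PYGB, the brain form, in the Huh7 control and 40.2% in the knockdown, and 55.7% and 42.6% in PLC/PRF/5. PYGB was at 89.9 TPM (control) and 127 TPM (knockdown) in the Huh7 pair, and 81.7 and 107 TPM in the PLC/PRF/5 pair. The sum of both forms was 200 and 213 TPM in Huh7 and 185 and 186 TPM in PLC/PRF/5, so the total differed less than either form did. Neither form passed the knockdown test on its own (limma adjusted p = 0.191 for PYGL and 0.177 for PYGB).

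The liver forms G6PC, GYS2 and SLC2A2, and the cytosolic form PCK1, were the minor ones of their pairs in every library. PCK1 made up 0.31% of the summed TPM of PCK1 and PCK2 in the Huh7 control and 4.82% in the knockdown, and 8.83% and 12.7% in PLC/PRF/5. The share was higher in the knockdown of both lines, through more PCK1 in Huh7 and less PCK2 in PLC/PRF/5. G6PC stood beside G6PC3, the widespread glucose-6-phosphatase, which was at 44.6 TPM (control) and 42.2 TPM (knockdown) in Huh7, against 77.9 and 76.1 TPM for the PLC/PRF/5 pair. G6PC made up 0.268% (control) and 0.705% (knockdown) of the sum in Huh7, against 8.08% and 3.78% for the PLC/PRF/5 pair. GYS2 made up at most 0.803% of the summed TPM of GYS2 and GYS1, the muscle form, with GYS1 between 46.9 and 58.5 TPM. SLC2A2 made up 2.37% and 4.94% of the sum with SLC2A1 (GLUT1) in the Huh7 control and knockdown, and 7.99% and 3.67% in PLC/PRF/5. SLC2A1 itself was at 77.5 TPM in control and 46.6 TPM in knockdown cells of Huh7, beside 27.9 and 32.0 TPM for those of PLC/PRF/5.

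**Figure D4:**
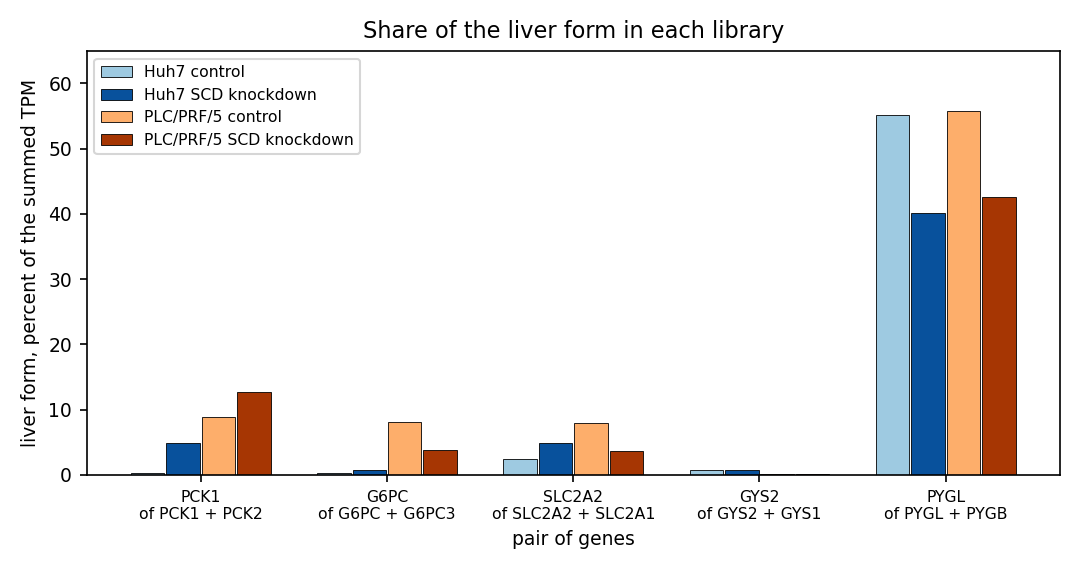
Liver form (for PCK1, the cytosolic form) as a percent of the summed TPM of that form and its counterpart, for 5 pairs of genes (horizontal axis), 1 bar per library. PYGL is near 55% in both controls and at 40.2% and 42.6% in the knockdown libraries, while PCK1, G6PC, SLC2A2 and GYS2 stay at 12.7% or less.

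The wider pathway was followed through 120 further genes in 5 lists, of which 107 entered the fit. None passed the knockdown test in limma, and 25 (23.4%) had an unadjusted p under 0.05, beside 18% of all 13813 genes. In the line comparison 37 (34.6%) passed as higher and 26 (24.3%) as lower in PLC/PRF/5, shares near the 31.5% and 28.3% of all genes. Of 19 glycolysis genes considered in both, 10 were lower in both lines, none was higher in both and 9 were opposite. After median-ratio scaling 13 were lower in both, none higher in both and 6 opposite. That list had medians of -0.24 for Huh7 and -0.23 for PLC/PRF/5. Of 23 other glycogen genes, 14 were higher in both, 3 lower in both and 6 opposite, but median-ratio scaling made these 7, 6 and 10. Its medians of 0.13 and 0.07 stood close to those of all genes. The lists of substrate entry and export (5 higher, 6 lower and 7 opposite; 3, 9 and 6 after scaling), of fructose and polyol genes (2, 4 and 2 either way) and of regulators (13, 7 and 14; 9, 11 and 14 after scaling) were mixed. Over all genes, 46.5% were higher in both, 22.4% lower in both and 31% opposite, and after scaling 30.1%, 37.3% and 32.6%.

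**Figure D5:**
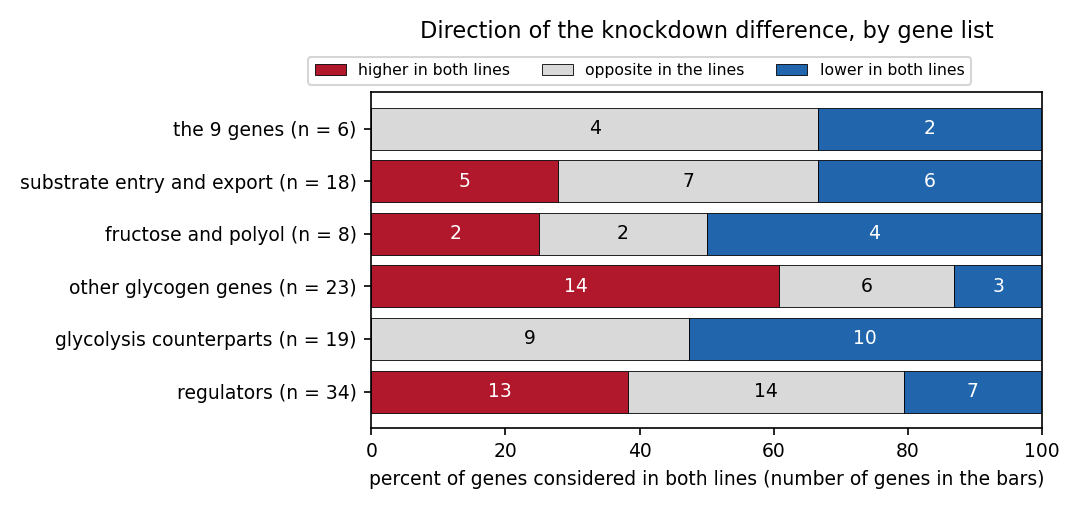
Direction of the knockdown difference in both lines for the 9 genes and 5 wider lists, as a percent of the genes considered in both lines, with the number of genes in each bar. The glycolysis list has 10 genes lower in both lines and none higher in both; the other glycogen genes have 14 higher in both, which median-ratio scaling reduced to 7.

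Within these lists, the genes with the largest mean size of change were named. LDHB, a lactate dehydrogenase subunit, was at 1.95 TPM (control) and 8.04 TPM (knockdown) in the Huh7 pair, and 0.48 and 2.01 TPM in the PLC/PRF/5 pair. HKDC1, a hexokinase-like gene, was at 0.88 TPM (control) and 6.52 TPM (knockdown) in Huh7, against 31.8 and 48.6 TPM for the PLC/PRF/5 pair. NHLRC1, the ubiquitin ligase malin that acts on glycogen proteins, was at 0.89 TPM (control) and 5.21 TPM (knockdown) in Huh7, against 4.24 and 7.39 TPM for the PLC/PRF/5 pair. These genes were higher in the knockdown library of both lines, with limma adjusted p-values of 0.157 for LDHB, 0.21 for HKDC1 and 0.195 for NHLRC1. GOT1, the cytosolic aspartate transaminase, had log2 fold changes of 0.40 (Huh7) and 0.50 (PLC/PRF/5). SLC2A3 (GLUT3), a high-affinity glucose transporter, was under 1 TPM in both Huh7 libraries, whereas PLC/PRF/5 had 33.5 TPM (control) and 6.71 TPM (knockdown).

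Among regulators, IGFBP1, a secreted insulin-like growth factor binding protein that insulin represses in liver, was also higher in PLC/PRF/5. It was at 1.54 TPM in control and 6.57 TPM in knockdown cells of Huh7, beside 264 and 368 TPM for those of PLC/PRF/5, a line difference of 6.16 on the log2 scale (standard error 0.27, limma adjusted p = 0.000309). PRKAA2, a catalytic subunit of the energy sensor AMPK, had log2 fold changes of 1.04 (Huh7) and 0.48 (PLC/PRF/5) with the knockdown. CEBPA, a hepatocyte transcription factor, was at 444 TPM (control) and 350 TPM (knockdown) in the Huh7 pair, and 98.3 and 48.4 TPM in the PLC/PRF/5 pair. LDHD, AKR1B1, ALDH2, STBD1, PFKFB4 and ALDOC completed the named genes, with mean sizes of change between 0.41 and 0.64.

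Genes whose level ran most like each member over the 4 libraries were taken by the distance between centred log2(TPM + 1) values. Nearest to G6PC were HOXA5 (distance 0.11), CP (0.12) and ERAP2 (0.15). CP, the copper carrier ceruloplasmin, was at 64.3 TPM (control) and 79.4 TPM (knockdown) in Huh7, against 433 and 228 TPM for the PLC/PRF/5 pair. Nearest to PCK1 were ANXA1 (0.27), GPC1 (0.27) and S100A16 (0.38), and nearest to PCK2 were SEMA4B (0.14), SNORA67 (0.15) and ZNF488 (0.17). FBP1 had ACSL1, a long-chain acyl-CoA synthetase, as its nearest gene (0.04), at 53.7 TPM in control and 74.7 TPM in knockdown cells of Huh7, beside 12.9 and 12.4 TPM for those of PLC/PRF/5, followed by TINAGL1 (0.04) and KDF1 (0.06). PC was followed by RASL10B (0.05), KIF7 (0.05) and NRK (0.06), and KHK by SKAP2 (0.08), MARK4 (0.09) and NMNAT3 (0.11). With 4 libraries many genes share any pattern, so these are descriptions of the libraries. SLC2A2, PYGL and GYS2 spanned less than 1 on the log2 scale and were not matched.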

How the data were processed

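RNA from 4 cultures, 1 library per group, was sequenced by standard Illumina methods (labels' protocols). The authors deposited TPM values per gene symbol, and cutadapt, RSEM 1.2.21 and hg19 are named per the submitters' processing notes. Aligner, annotation and strand setting: not given in the sources used here. Shared reads are divided among genes by likelihood in RSEM, and TPM fixes each library's total, so abundant genes move the others and depth is lost.

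Fold changes used log2(TPM + 1). Genes entered a pair at 1 TPM in either library and the fit at 1 TPM in 2 libraries. The fit was limma 3.58.1 in R 4.3.3 with a variance trend, two-sided, and was tested on simulated data. Each group has 1 library, so the p-values measure how alike a difference was in both lines or in both arms. They do not measure the spread among cultures of a group. Named genes were the 9, their paired forms (some pairs are not reported here), the 3 of each wider list with the largest mean absolute fold change, and the 3 nearest in pattern to each member spanning 1 log2 unit or more. GENCODE 29 gave sequence overlap and RefSeq promoter windows for 6 of 9 genes. Members and lists were chosen with earlier results of these data known. Alternatives were other pseudocounts, filters, scaling, no trend and no block.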

Additional observations from a re-analysis of the deposited data

Results flagged for a closer look

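4 of the 6 genes considered in both lines went opposite ways with SCD knockdown, higher in the Huh7 library and lower in the PLC/PRF/5 library (14.1% of all genes). Some sides were close to no change: PCK2 in Huh7 had a log2 fold change of 0.13 (0.04 after median-ratio scaling) and PCK1 in PLC/PRF/5 of -0.10. The difference between the lines' log2 fold changes was 1.66 for PCK1, 0.87 for SLC2A2, 0.83 for PCK2 and 0.66 for KHK. Each rests on 1 library per group, and the difference was not tested.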

How the results depend on the processing

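No member passed the knockdown test across lines under any of the 7 alternatives run, with PYGL at limma adjusted p-values from 0.157 to 1. The 6 genes that passed the line difference did so under each alternative in which they were tested. At a TPM minimum of 5, G6PC, FBP1 and SLC2A2 left the fit (5 genes entered, 4 passed), and without a filter GYS2 entered and 7 passed. In Huh7, the count at least 2-fold higher was 0 with a pseudocount of 5 and 0 with a TPM minimum of 5, in place of 1 (PCK1). In PLC/PRF/5, the count at least 2-fold lower was 1 with a pseudocount of 0.1 and 1 with median-ratio scaling, in place of 0 (G6PC). Between the controls, the count at least 2-fold lower in PLC/PRF/5 was 1 with a pseudocount of 5 and 1 with a TPM minimum of 5, in place of 2; FBP1 was the gene lost. No value of a member considered changed sign. The knockdown test pairs the libraries by line, and without that block PYGL had a limma adjusted p of 1. The labels give no replicate numbers to pair by. Leaving out a library empties a group and leaves no residual degree of freedom, so no such fit was run. Unknown depth limits every value near 0, above all PCK1 and G6PC in Huh7 and FBP1 in PLC/PRF/5.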

Other observations

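Other enzymes of sugar metabolism differed between the lines by form, and these genes were chosen after their values were seen. PFKP, the platelet form of phosphofructokinase, was at 0.1 TPM (control) and 0.48 TPM (knockdown) in the Huh7 pair, and 84.8 and 79.1 TPM in the PLC/PRF/5 pair, while the liver form PFKL was at 99.4 and 137 TPM and at 111 and 110 TPM. PHKA1, the muscle regulatory subunit of phosphorylase kinase, was at 0.03 TPM (control) and 0.08 TPM (knockdown) in Huh7, against 20.7 and 18.1 TPM for the PLC/PRF/5 pair. The liver subunit PHKA2 was also higher in PLC/PRF/5, at 24.5 and 40.0 TPM in Huh7 and 46.6 and 48.1 TPM in PLC/PRF/5. SLC25A12, a mitochondrial aspartate-glutamate carrier, was at 1.07 TPM in control and 0.82 TPM in knockdown cells of Huh7, beside 24.3 and 25.3 TPM for those of PLC/PRF/5, whereas the liver carrier SLC25A13 lay between 79.2 and 98.0 TPM in every library. Not all enzymes ran this way. The liver pyruvate kinase PKLR was at 1.22 TPM (control) and 0.88 TPM (knockdown) in Huh7, against 8.14 and 4.29 TPM for the PLC/PRF/5 pair. The widespread form PKM was lower in PLC/PRF/5, at 1618 and 1681 TPM in Huh7 and 1264 and 1047 TPM in PLC/PRF/5.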
